A study of Homo sapiens with 15 samples.

Results

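PHGDH and PSAT1 encode the first and second enzymes of serine synthesis, and they were the 2 genes, of 14812 measured, described here across all groups of an experiment on BET inhibitors. They were taken by name from the array's annotation, and each was represented by 1 array feature, so no choice between features entered. The cells were MV4-11, an established human acute myeloid leukemia line known for a fusion of KMT2A with AFF1 and for an internal duplication in FLT3. The 5 groups, each of 3 arrays and all taken at 24 h, received DMSO, the vehicle, or a compound, which was OTX015, DW71177 or DW71374 at 300 nM, or RVX208 at 5 uM. OTX015, also called birabresib, is a BET inhibitor that does not choose between the paired bromodomains, RVX208, or apabetalone, prefers the second of them, and DW71177 and DW71374 are known here by code name. Cells were treated in triplicate wells, and the labels do not say whether these were independent cultures, so every p-value here is set against the spread among wells, which can be technical. Of 8 measured markers of the myeloid line 7 had a DMSO mean of at least 5 on the log2 scale, among them LYZ at 11.1, AZU1 at 9.85 and FLT3 at 9.80. The single measured lymphoid marker, PAX5, lay at 4.44, while 3 markers of other lineages, KRT18 at 7.74, PF4 at 5.92 and KRT8 at 5.29, lay above 5.

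Serine synthesis branches from glycolysis. PHGDH oxidises the glycolytic intermediate 3-phosphoglycerate, PSAT1 then transfers an amino group from glutamate and releases alpha-ketoglutarate, and PSPH removes the phosphate to give serine. Serine in turn supplies glycine, phospholipids, sphingolipids and the one-carbon units that folate enzymes pass on to nucleotide synthesis, which is why the pathway is studied in proliferating leukemia cells. Transcription of the pathway is known to be driven by ATF4, the transcription factor of the amino acid and unfolded protein stress response, and by MYC. BET proteins bind acetylated lysines on histones and recruit the transcription machinery, and their inhibitors displace them.

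The promoters of PHGDH and PSAT1 are shown as a description, from the RefSeq promoter table on GRCh38.p14. Any part of their letters in the levels of these genes was not tested, and the promoter of PSPH is not shown. Each window runs from 250 bases before to 50 bases after the annotated start, on the plus strand, and capitals mark matches to CCAAT, the CCAAT box bound by the factor NF-Y. The PHGDH window is chr1:119711684-119711983 and the PSAT1 window is chr9:78296875-78297174.
PHGDH: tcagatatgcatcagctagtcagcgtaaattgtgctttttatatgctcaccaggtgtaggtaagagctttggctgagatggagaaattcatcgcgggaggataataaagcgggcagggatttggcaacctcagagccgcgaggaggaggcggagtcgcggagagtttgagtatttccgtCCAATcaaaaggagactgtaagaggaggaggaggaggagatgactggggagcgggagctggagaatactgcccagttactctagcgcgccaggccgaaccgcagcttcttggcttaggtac
PSAT1: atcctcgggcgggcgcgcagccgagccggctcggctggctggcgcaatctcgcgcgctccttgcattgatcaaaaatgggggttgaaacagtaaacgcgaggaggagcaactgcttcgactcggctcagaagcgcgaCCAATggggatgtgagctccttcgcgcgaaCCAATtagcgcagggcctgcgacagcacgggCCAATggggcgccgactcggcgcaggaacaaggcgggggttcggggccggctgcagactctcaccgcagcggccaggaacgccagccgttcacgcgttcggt
PHGDH held 1 match, beginning 71 bases before the start, and PSAT1 held 3, at 113, 83 and 52 bases before it, all in the direction of transcription. On either strand, 34.6% of the 35116 promoters in the table held at least 1 CCAAT and 3.26% held at least 3. Neither window held the E-box CACGTG that MYC binds, found in 7.26% of promoters, or TGATGNAA, the composite letters of ATF4 with C/EBP factors, found in 3.62%. For both factors only these exact letters within the windows were searched, so sites elsewhere or in other letters would be missed. The GC box GGGCGG occurred 1 time in PSAT1 and 0 times in PHGDH, against 45.0% of promoters with a match. These searches covered both strands, the GC box lay 244 bases before the start and apart from the CCAAT matches, and the GC content was 52.7% for PHGDH and 66.0% for PSAT1.

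PHGDH was lower with OTX015, DW71177 and RVX208 than with DMSO and did not differ detectably with DW71374. On the log2 signal scale its DMSO arrays read 5.88, 5.86 and 5.86. The OTX015 arrays read 5.06, 4.85 and 4.85, and the DW71177 arrays 5.17, 4.96 and 4.82. Every array of both groups lay below every control array, and the 2 compounds overlapped. The RVX208 arrays read 5.15, 5.17 and 5.18, also all below the controls, and the highest DW71177 array fell within their range. The DW71374 arrays read 5.87, 6.20 and 5.86. They overlapped the controls, and 1 of them, replicate 2, stood above the other two and above every control array. In order of level the groups ran OTX015 at 4.92 ± 0.12 (SD, n = 3), DW71177 at 4.98 ± 0.18, RVX208 at 5.17 ± 0.019, DMSO at 5.87 ± 0.013 and DW71374 at 5.98 ± 0.19. Between neighbours in that order, only RVX208 and DMSO had arrays that did not overlap.

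In the fit of all groups, PHGDH fell 1.93-fold with OTX015 (log2 -0.95 ± 0.10 SE, with a 95% interval of -1.16 to -0.73 from 3 arrays a group, limma adjusted p = 7.6e-06). It fell 1.85-fold with DW71177 (-0.89 ± 0.10, interval -1.10 to -0.67, limma adjusted p = 2.6e-05). With RVX208, at its different dose, it fell 1.62-fold (-0.70 ± 0.10, interval -0.92 to -0.48, limma adjusted p = 0.00094). The OTX015 and DW71177 means were dim, below 5 where the arrays' medians were 3.72 to 3.79, and no background level was given against which to read those 2 folds. With DW71374 the difference was 0.11 ± 0.10 (interval -0.11 to 0.33, limma adjusted p = 0.99), and without its replicate 2 it was -0.00098. Ordered from the most lowered of all 14812 genes, PHGDH stood at position 172 with OTX015, 93 with DW71177 and 45 with RVX208.

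PSAT1 was lower with the same 3 compounds as PHGDH. Its DMSO arrays read 9.32, 9.33 and 9.33 on the log2 signal scale, a level above that of 98.2% of genes in DMSO, whereas 67.7% of genes lay below PHGDH. A feature's brightness also depends on its probes, so these 2 positions do not compare the transcripts' amounts. The OTX015 arrays read 8.25, 8.38 and 8.44, the DW71177 arrays 8.24, 8.39 and 8.38, and these groups overlapped each other. The RVX208 arrays read 8.72, 8.77 and 8.77, of which the last 2 held the same deposited value. They lay between the controls and the other 2 active groups and overlapped neither. The DW71374 arrays read 9.32, 9.23 and 9.28 and overlapped the controls. In order of level the groups ran DW71177 at 8.34 ± 0.085 (SD, n = 3), OTX015 at 8.36 ± 0.095, RVX208 at 8.76 ± 0.029, DW71374 at 9.28 ± 0.044 and DMSO at 9.33 ± 0.0090.

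PSAT1 fell 1.96-fold with OTX015 (log2 -0.97 ± 0.062 SE, with a 95% interval of -1.10 to -0.84, limma adjusted p = 8.4e-08). It fell 1.99-fold with DW71177 (-0.99 ± 0.062, interval -1.12 to -0.86, limma adjusted p = 1.6e-07) and 1.48-fold with RVX208 (-0.57 ± 0.062, interval -0.70 to -0.44, limma adjusted p = 0.00013). With DW71374 it differed by -0.05 ± 0.062 (interval -0.18 to 0.09, limma adjusted p = 0.99), which bounds any fall at 1.13-fold. From the most lowered gene, PSAT1 stood at position 156 with OTX015, 64 with DW71177 and 92 with RVX208. Both genes were thus called lower with 3 of the 4 compounds, where limma called 14.5% of all genes lower with OTX015, 9.88% with DW71177, 3.11% with RVX208 and 0% with DW71374. With DW71374 limma called 0 genes in either direction, and 686 genes had an unadjusted p under 0.05. The shares called higher were 11.2%, 9.95%, 3.41% and 0%. The arrays of 19.5%, 16.2%, 13.3% and 5.98% of genes lay wholly below the controls in the same 4 comparisons. With RVX208 limma called 966 genes in either direction, 461 of them lower. Leaving out any 1 of the 6 arrays lowered the number in either direction to between 564 and 636, with both genes still called. These comparisons share the DMSO arrays.

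**Figure D1:**
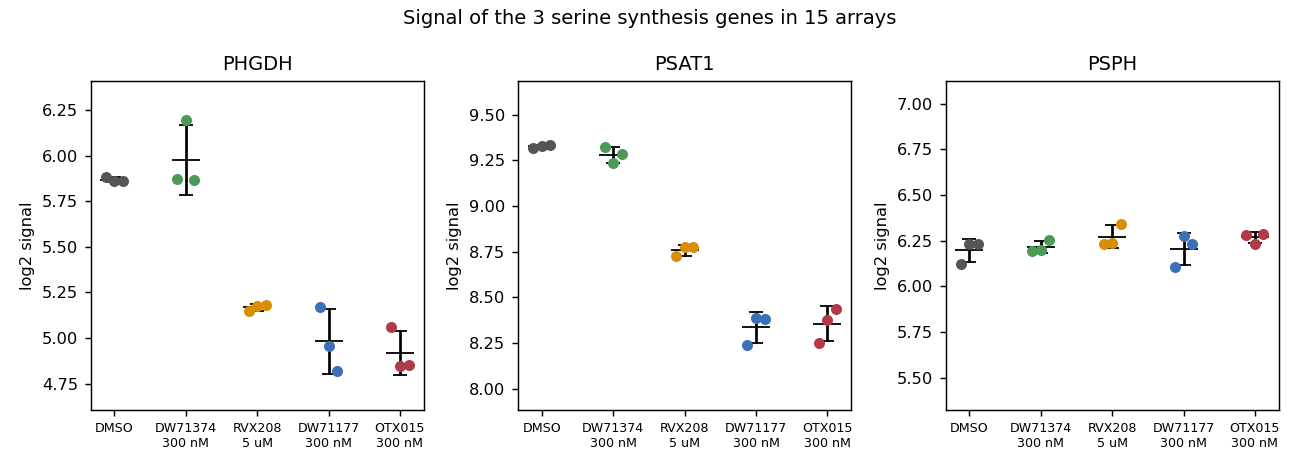
Log2 signal (vertical axis) of PHGDH, PSAT1 and PSPH in every array of the 5 groups. Points are arrays, and the horizontal mark and bar are the group mean and SD (n = 3). PHGDH and PSAT1 lay below every DMSO array with RVX208, DW71177 and OTX015, while PSPH stayed between 6.11 and 6.34 in all 15 arrays. The 3 panels span the same log2 range around different centres.

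The 3 compounds used at 300 nM were compared directly, in 3 pairs. DW71177 and OTX015 did not differ detectably in either gene. PHGDH differed by 0.06 ± 0.10 (DW71177 minus OTX015, 95% confidence interval -0.15 to 0.28, limma adjusted p = 0.85) and PSAT1 by -0.02 ± 0.062 (interval -0.15 to 0.11, limma adjusted p = 0.93), where limma called 1.26% of all genes, or 186, between the 2 compounds, and 71 to 139 with any 1 of the 6 arrays left out. The intervals bound a difference at 1.21-fold for PHGDH and 1.11-fold for PSAT1. DW71177 was lower than DW71374 by 1.99-fold in PHGDH (log2 -0.99 ± 0.10, limma adjusted p = 1e-05) and by 1.92-fold in PSAT1 (-0.94 ± 0.062, limma adjusted p = 2.7e-07), against 9.51% of genes called lower. DW71374 was higher than OTX015 by 2.08-fold in PHGDH (1.06 ± 0.10, limma adjusted p = 2.8e-06) and by 1.90-fold in PSAT1 (0.92 ± 0.062, limma adjusted p = 1.4e-07), against 14% of genes called higher. So at 1 shared dose and time, DW71177 and OTX015 lowered both genes and DW71374 was not seen to. RVX208 was given at 5 uM and was not tested against the others. Its log2 change was 73.8% of that of OTX015 in PHGDH and 58.6% in PSAT1, where DW71177 reached 93.5% and 102%. These shares are given without a test, those of RVX208 span unlike doses, and those of PHGDH rest on the dim OTX015 mean.

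PSPH, the phosphatase that completes the pathway, did not differ detectably from DMSO with any of the 4 compounds. Its 3 DMSO arrays read 6.12, 6.23 and 6.23, and its 3 OTX015 arrays 6.28, 6.23 and 6.29. Against DMSO it differed by 0.07 ± 0.061 with OTX015 (95% confidence interval -0.06 to 0.20, limma adjusted p = 0.48), 0.01 ± 0.061 with DW71177, 0.07 ± 0.061 with RVX208 and 0.02 ± 0.061 with DW71374, none of which passed the test. Of the 15 arrays 5, from several groups, held the same deposited PSPH value of 6.23. The lower bounds of these intervals, -0.06, -0.12, -0.06 and -0.11, allow falls far smaller than those of PHGDH and PSAT1. The change of PSAT1 less that of PSPH, taken within each array, was -1.04 with OTX015, -0.998 with DW71177 and -0.64 with RVX208, and that of PHGDH less PSPH was -1.02, -0.89 and -0.77. In all 6 cases the 3 treated arrays lay beyond the 3 controls (exact permutation test, two-sided p = 0.1, the smallest that 3 against 3 arrays allow). That outcome follows from the falls of PHGDH and PSAT1 and the narrow range of PSPH given above. The 6 cases also share the DMSO arrays and the PSPH values, so they add no separate evidence.

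**Figure D2:**
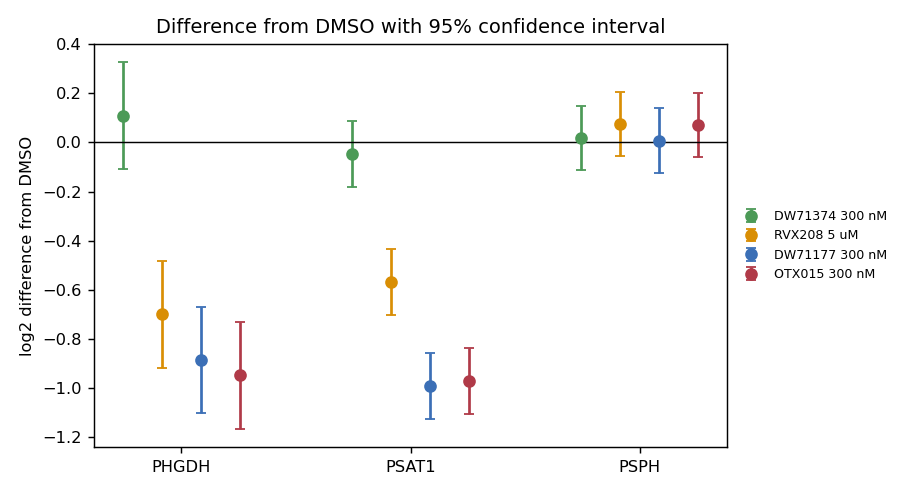
Log2 difference from DMSO (vertical axis) of PHGDH, PSAT1 and PSPH with each compound, from the fit of all 15 arrays. Points are differences of group means and bars are 95% confidence intervals. The intervals of PHGDH and PSAT1 lie below 0 with RVX208, DW71177 and OTX015, and all 4 intervals of PSPH include 0.

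The sizes of the falls of PHGDH and PSAT1 were set against each other. The change of PHGDH less that of PSAT1, taken within each array, averaged 0.02 with OTX015 (-0.13 to 0.26 over 3 arrays) and 0.11 with DW71177 (-0.10 to 0.39), both ranges including 0. With RVX208 it was -0.13, at -0.14 to -0.12, outside the DMSO range of -0.01 to 0.03 (exact permutation test, two-sided p = 0.1, the smallest possible). Over the 15 arrays, which share their groups, the log2 signals of the 2 genes correlated at r = 0.923. About their group means, however, the same arrays correlated at r = -0.793, with 10 residual degrees of freedom. In DW71177, OTX015, DMSO and DW71374 the array with the highest PHGDH was the array with the lowest PSAT1, which was replicate 1 in the first 3 of these groups and replicate 2 in DW71374. In RVX208 that was not so. Both correlations are descriptions of these arrays.

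**Figure D3:**
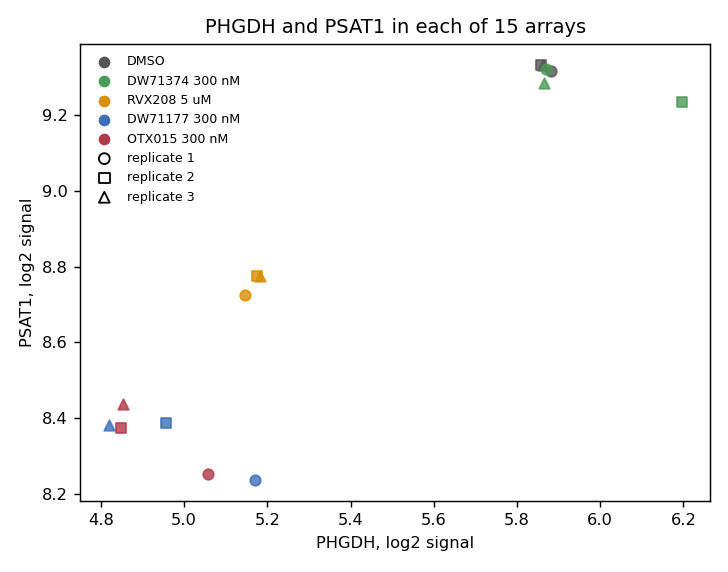
Log2 signal of PHGDH (horizontal axis) against PSAT1 (vertical axis) in each of the 15 arrays, coloured by group and shaped by replicate number. DMSO and DW71374 lie at the upper right, RVX208 between, and DW71177 and OTX015 at the lower left, where replicate 1 of each has the higher PHGDH and the lower PSAT1.

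The transcription factors known to drive the pathway were measured too. MYC read 9.31, 9.29 and 9.35 in DMSO and 7.89, 7.87 and 7.91 with OTX015, and the groups did not overlap. It fell by 1.42 ± 0.054 on the log2 scale with OTX015, by 1.16 ± 0.054 with DW71177 and by 0.32 ± 0.054 with RVX208 (limma adjusted p = 7.7e-10, 9.2e-09 and 0.0027), and differed by -0.04 ± 0.054 with DW71374. MYC was higher with DW71177 than with OTX015 by 0.26 (interval 0.14 to 0.38, limma adjusted p = 0.037), but the call was lost under 9 of 14 settings, with adjusted p-values from 0.00096 to 0.36. These were any 1 array left out but DW71177 replicate 2, the replicate block (limma adjusted p = 0.058), quantile normalization, every feature and the 6 arrays alone. ATF4 read 8.69, 8.61 and 8.66 in DMSO, 8.45, 8.39 and 8.48 with OTX015, 8.48, 8.22 and 8.28 with DW71177 and 8.50, 8.36 and 8.34 with RVX208, with every treated array below the controls. Its falls were small, by 0.22, 0.33 and 0.26 (each ± 0.072 SE) in the same order of compounds (limma adjusted p = 0.04, 0.0046 and 0.049). The OTX015 call was lost when any 1 of the 6 arrays was left out, and the RVX208 call when any 1 but RVX208 replicate 1 was, and both calls were also lost under quantile normalization and over every feature, that of RVX208 also under median centring and from the 6 arrays alone. Over all settings their adjusted p reached 0.12 and 0.15.

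Of the 9 measured regulators 3 were called lower and 3 higher with OTX015, against 14.5% and 11.2% of all genes, with a median of -0.01 against -0.0038 over all genes. EHMT2, the histone methyltransferase G9a that is known to sustain serine synthesis, fell by 0.40 with OTX015 and by 0.25 with DW71177 and differed by -0.12 with RVX208. KDM4C, a histone demethylase with the same reported role, rose by 0.29 and 0.35 with OTX015 and DW71177 and differed by 0.07 with RVX208. The OTX015 call of KDM4C was lost without DMSO replicate 1, OTX015 replicate 2 or OTX015 replicate 3 and over every feature, and its DW71177 call from the 6 arrays alone. NFE2L2, the oxidative stress factor NRF2, rose by 0.35 with OTX015 and by 0.24 with DW71177, the second call being lost without DMSO replicate 2, DMSO replicate 3 or DW71177 replicate 3 and from the 6 arrays alone, and differed by 0.21 with RVX208. BRD2, itself a BET protein, rose by 0.52 and 0.27 with OTX015 and DW71177. The stress kinases EIF2AK4 and EIF2AK3, which act upstream of ATF4, differed by -0.01 and -0.26 with OTX015 and did not pass the test, nor did BRD3 at 0.08. With DW71374, 0 of the 9 were called.

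Members of the wider ATF4 target list were called lower, called higher or not called. Of 19 measured members 9 were lower and 2 higher with OTX015, 9 and 1 with DW71177 and 7 and 1 with RVX208. Over all genes 14.5% were called lower and 11.2% higher with OTX015, 9.88% and 9.95% with DW71177, and 3.11% and 3.41% with RVX208. With OTX015 and DW71177 the members called higher did not exceed those shares. The list medians were -0.12, -0.12 and -0.17, where the median over all genes was -0.0038, -0.0059 and -0.010. The RVX208 count of lower members fell to 4 without DMSO replicate 3. The isoleucyl-tRNA synthetase gene IARS1 fell by 0.92, 0.76 and 0.41 with OTX015, DW71177 and RVX208. The alanyl-tRNA synthetase gene AARS1 fell by 0.63, 0.47 and 0.26, the lipoprotein receptor gene VLDLR by 0.77, 0.67 and 0.70, and EIF4EBP1, which encodes a repressor of translation initiation, by 0.99, 0.75 and 0.46. The next pair of targets is named after the values were seen. ASNS, the asparagine synthetase gene often used as a readout of ATF4, differed by -0.12, -0.12 and -0.27 (each ± 0.11 SE) with the same 3 compounds and did not pass the test. SESN2, an inhibitor of mTORC1 signalling, rose by 0.50, 0.45 and 0.35, the RVX208 call being lost without DMSO replicate 1 or RVX208 replicate 2.

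Folate enzymes, which carry the one-carbon units taken from serine, were called in both directions. Of 7 measured members 5 were lower and 2 higher with OTX015, 2 and 1 with DW71177, 1 and 1 with RVX208 and 0 with DW71374, and the medians were -0.23, -0.14, -0.06 and 0.05. Over all genes 14.5% were called lower and 11.2% higher with OTX015, 9.88% and 9.95% with DW71177, 3.11% and 3.41% with RVX208 and 0% with DW71374. MTHFD1L, the mitochondrial enzyme that releases formate, read 6.96, 7.03 and 6.86 in DMSO and 5.77, 5.67 and 5.85 with OTX015, a fall by 1.19 ± 0.070 on the log2 scale (limma adjusted p = 4e-08). It fell by 0.96 with DW71177 and 0.45 with RVX208, so that it was lower in the same 3 groups as PHGDH and PSAT1. SHMT2, the mitochondrial enzyme that splits serine into glycine and a one-carbon unit, fell by 0.22 ± 0.054 with OTX015 and differed by -0.14 with DW71177 and -0.13 with RVX208. TYMS, thymidylate synthase, fell by 0.62 and 0.27 with OTX015 and DW71177, and differed by -0.08 with RVX208. MTFMT, which formylates the mitochondrial initiator tRNA, rose by 0.74, 0.66 and 0.48 with the same 3 compounds. The OTX015 count of lower members was 3 at its smallest with an array left out. SHMT1, the cytosolic counterpart of SHMT2, and FPGS, which adds glutamate to folates, both named after their values were seen, were among the calls lost. SHMT1 was lost without DMSO replicate 1, DMSO replicate 3, OTX015 replicate 1 or OTX015 replicate 2, under both other scalings, over every feature and from the 6 arrays alone. FPGS was lost without any 1 array but OTX015 replicate 1, under quantile normalization and over every feature.

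Of 12 measured enzymes that use serine or glycine 3 were lower and 2 higher with OTX015, 4 and 1 with DW71177, 0 and 1 with RVX208 and 0 with DW71374 (medians -0.13, -0.10, -0.05 and -0.05). Over all genes the shares called lower and higher were 14.5% and 11.2% with OTX015, 9.88% and 9.95% with DW71177 and 3.11% and 3.41% with RVX208, and the OTX015 count lay near them. SRR, the serine racemase gene, rose by 0.71, 0.86 and 0.56 with OTX015, DW71177 and RVX208, opposite to PHGDH and PSAT1 in each. MTR, methionine synthase, fell by 0.41 and 0.29 with OTX015 and DW71177, the second call being lost without DMSO replicate 3 or DW71177 replicate 1 and from the 6 arrays alone. PTDSS2, a phosphatidylserine synthase gene, fell by 0.42 and 0.40, the first call being lost from the 6 arrays alone. GCSH of the glycine cleavage system fell by 0.47 and 0.46, from a dim DMSO level of 2.48. Of the 2 measured transporters, the mitochondrial serine carrier gene SFXN1 fell by 0.42 with OTX015 and by 0.34 with DW71177, the second call being lost without DMSO replicate 2, DW71177 replicate 1 or DW71177 replicate 3 and from the 6 arrays alone. SFXN3 differed by -0.02 and -0.14.

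Glycolysis supplies the substrate of PHGDH, and glutamate the amino group used by PSAT1. Of 9 glycolysis genes 4 were lower and 1 higher with OTX015, 3 and 1 with DW71177 and 1 and 0 with RVX208 (medians -0.10, -0.17 and -0.10). The shares of all genes called lower and higher were 14.5% and 11.2%, 9.88% and 9.95%, and 3.11% and 3.41% in that order. GPI, the isomerase gene early in the pathway, fell by 0.54, 0.40 and 0.22, and the RVX208 call was lost without any 1 of the 6 arrays, from those 6 alone, under median centring and over every feature. HK2 fell by 0.47 and 0.40 and LDHB by 0.47 and 0.25 with OTX015 and DW71177, while HK1 rose by 0.40 and 0.45. PGK1 and PGAM1, whose enzymes make and use 3-phosphoglycerate and which are named after their values were seen, differed by -0.05 ± 0.052 and -0.10 ± 0.079 with OTX015 and did not pass the test. Of 6 glutamate and proline genes 1 was lower and 1 higher with OTX015, 1 and 0 with DW71177 and 0 with RVX208, counts near those same shares. The medians of these genes were nevertheless -0.20, -0.27 and -0.21, where the median over all genes was -0.0038, -0.0059 and -0.010. PYCR3, of proline synthesis, fell by 0.68 with OTX015, and PYCR1 fell by 0.46 with DW71177, a call lost without DMSO replicate 2 or DW71177 replicate 2 and from the 6 arrays alone. GLUL, glutamine synthetase, rose by 0.20 with OTX015, a call lost without DMSO replicate 1 or OTX015 replicate 1, over every feature and from the 6 arrays alone, and GLUD1 differed by -0.28.

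**Figure D4:**
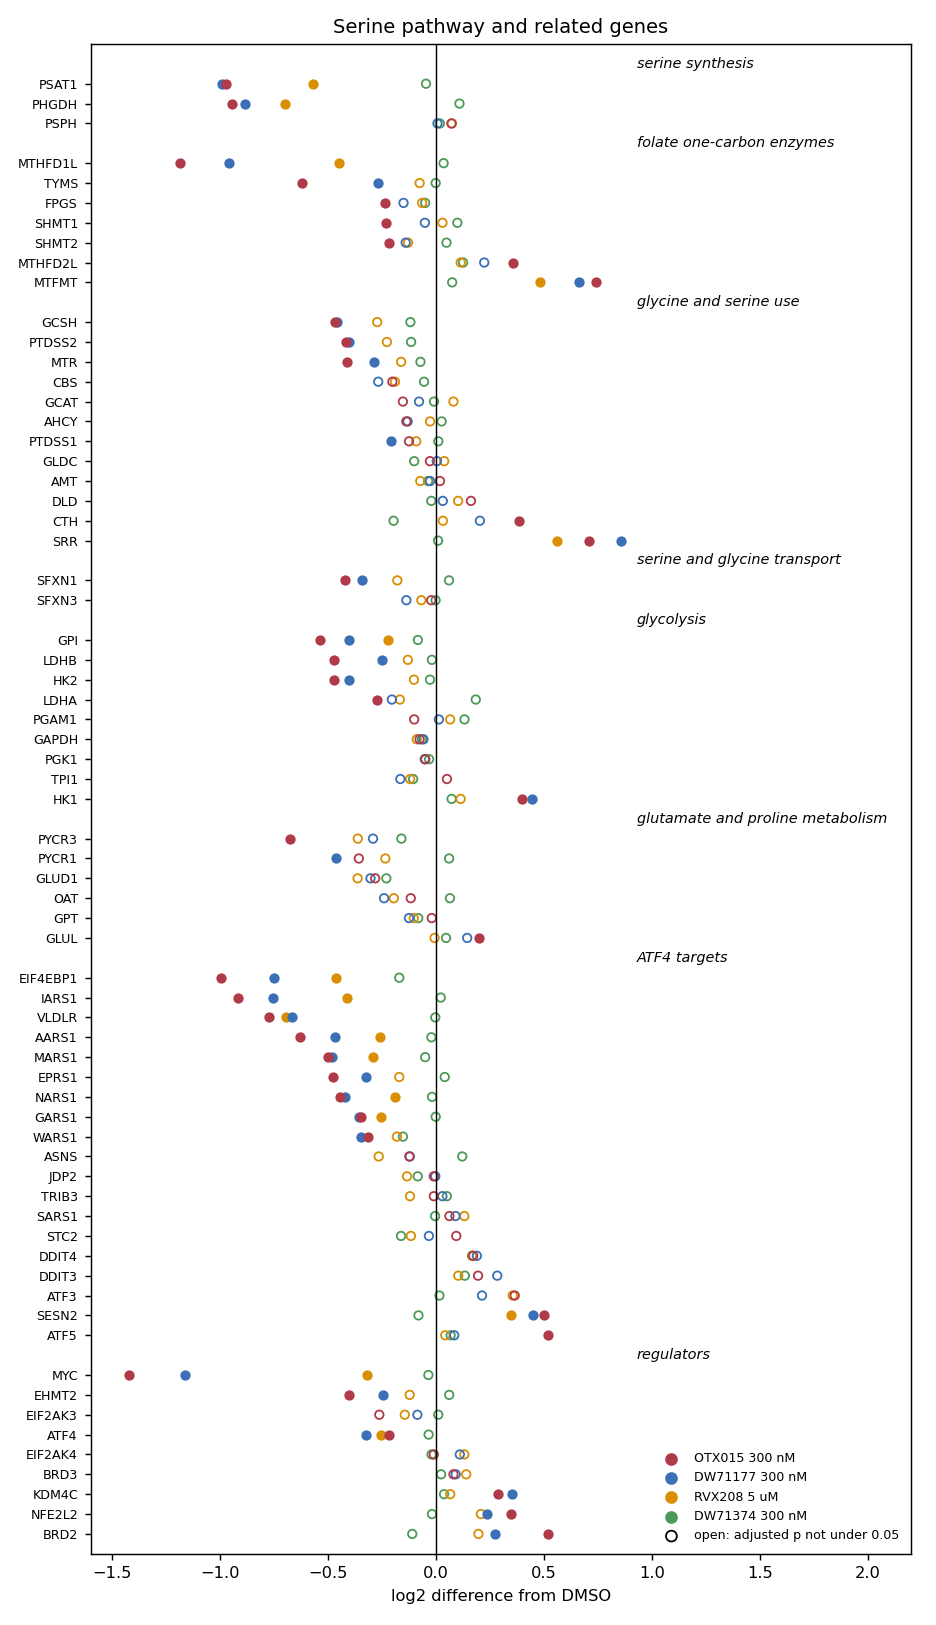
Log2 difference from DMSO (horizontal axis) of every measured gene of the serine, folate, glycolysis, glutamate, ATF4 and regulator lists, with genes in rows and 1 point per compound. Filled points passed the test at an adjusted p under 0.05 and open points did not. Among others PSAT1, PHGDH, MTHFD1L, IARS1, EIF4EBP1 and VLDLR are filled on the left with 3 compounds, SRR, MTFMT and SESN2 on the right, and every DW71374 point is open.

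The genes most like each enzyme over the 15 arrays, among 6735 others with a mean level of at least 5, were not genes of serine metabolism. For PSAT1 they were the chemokine receptor gene CCR2 (r = 0.994), the ribosome biogenesis gene RRP1 (0.990), ENPP2, which encodes autotaxin (0.989), MLC1 (0.988) and DTX4 (0.987). For PHGDH they were the signal regulatory gene SIRPB1 (0.975), the neutrophil protease gene CTSG (0.975), the transcription factor gene ETS2 (0.971), the IgM receptor gene FCMR (0.969) and the lipase gene MGLL (0.968). PSAT1 was 109th in likeness to PHGDH, and PHGDH 394th in likeness to PSAT1. An r of at least 0.9 was reached by 588 genes (8.73%) with PSAT1 and by 240 (3.56%) with PHGDH. These values describe 15 arrays in 5 groups that share their treatments, and a gene can be like in shape and differ in size. The level filter was a mean over all 15 arrays, and the positions and shares depend on the genes it kept. CTSG and MGLL passed it through DMSO (5.59 and 5.25) and DW71374 (5.84 and 5.28), and their other group means were below 5. FCMR and CCR2 were below 5 with OTX015 and DW71177. CCR2 fell by 3.94 with OTX015, to a dim 4.32, and by 2.18 with RVX208, and RRP1 fell by 0.73 and 0.40. The mean of the 8 myeloid markers moved with the same groups, at 7.93 to 7.96 in DMSO, 7.78 with RVX208 in all 3 arrays, 7.67 to 7.69 with DW71177 and 7.58 to 7.66 with OTX015. With OTX015 4 of the 8 were called lower and 1 higher, against 14.5% and 11.2% of all genes. CSF1R (7.02 in DMSO and 5.47 with OTX015) and LYZ (11.1 and 10.1) moved furthest. MPO and SPI1 were the others called lower, MEIS1 rose from 6.78 to 7.36, and FLT3, AZU1 and CD4 were not called. The list median with OTX015 was -0.12, against -0.0038 over all genes. The number called lower was 3 at its smallest with an array left out and 2 from the 6 arrays alone. The part of the myeloid markers in the levels of PHGDH and PSAT1 was not tested. The measured lymphoid and epithelial markers had 0 calls with any compound, and no stromal marker of the list was measured. PF4, of the 2 erythroid and megakaryocytic markers, fell by 0.35 with OTX015. That call was lost without DMSO replicate 2, DMSO replicate 3, OTX015 replicate 2 or OTX015 replicate 3, under the replicate block or quantile normalization, over every feature and from the 6 arrays alone.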

How the data were processed

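Total RNA of 15 MV4-11 samples was converted to sense cDNA, labelled with biotin and measured on Affymetrix gene arrays, per the labels' protocols. The deposited values were log2 signals of 44629 features, a scale read from their range. Array quartiles were nearly the same, as after normalization by the authors, whose method, background correction, software and build were not given in the sources read. A shift common to all genes would be lost in that step, and differences are relative to the whole array.

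Of the features 15835 named 1 gene in the platform annotation, 0 named several, and all 15835 matched a RefSeq gene by gene ID (assembly GRCh38.p14, used for names). For the 651 genes named by several features, the one with the highest mean over 15 arrays was used, which left 14812 genes. No filter on level was applied. Groups and replicate numbers came from the sample titles. The number of arrays limits the precision.

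Group means were fitted in R 4.3.3 with lmFit and default eBayes of limma 3.58.1 (10 residual degrees of freedom), and 7 comparisons were made with two-sided p-values adjusted by Benjamini-Hochberg over all 14812 genes, called at an adjusted p under 0.05. The fit was also run on simulated data with the same spread in every group, which does not test unequal spreads such as those of PHGDH. Alternatives were quantile normalization, median centring, the mean of a gene's features, genes with a mean of at least 5, every feature, another variance model, the 6 arrays compared, a replicate block and each array left out. Named genes were both enzymes, all measured serine synthesis genes and regulators, up to 4 members of each other list with the smallest p with OTX015, and the 5 genes most correlated with each enzyme. The text marks genes named outside this rule, apart from cell type markers. The genes and lists were chosen with earlier results of these data known. Promoter letters were matched by exact search in Python 3.11.15.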

Additional observations from a re-analysis of the deposited data

How the results depend on the processing

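PHGDH and PSAT1 kept their direction and their side of the threshold against DMSO with OTX015, DW71177 and RVX208, and in both comparisons of DW71374 with another 300 nM compound, under all 8 settings and with each array left out. Over the 8 settings the PHGDH difference ran from -0.95 to -0.94 with OTX015, -0.89 to -0.87 with DW71177 and -0.70 to -0.67 with RVX208, and that of PSAT1 from -0.97 to -0.94, -0.99 to -0.97 and -0.57 to -0.54. Their largest adjusted p under these settings was 0.0053, for PSAT1 with RVX208. With arrays left out in turn, 3 of the 4 differences that had not passed the test changed sign and still did not pass, while PSAT1 with DW71374 against DMSO stayed between -0.067 and -0.023. PHGDH with DW71374 against DMSO ran from -0.00098 to 0.17, PHGDH with DW71177 against OTX015 from -0.032 to 0.14, and PSAT1 in the latter pair from -0.071 to 0.029. The numbers of genes called moved more. Between DW71177 and OTX015 it was 186, against 593 among genes with a mean of at least 5, 79 over every feature, 497 with the other variance model, 1 from 6 arrays and 71 to 139 with an array left out. With RVX208 it was 966, against 1576, 1485 and 609 for brighter genes, the other variance model and 6 arrays, and 564 to 636 with an array left out. Every feature gave 5872 with OTX015 and 5604 for DW71374 against OTX015. Fewer or more features and arrays were tested in these settings, and for the variance model the cause was not tested. Median centring changed the RVX208 split from 505 higher and 461 lower to 542 and 312. Over all genes, same-numbered arrays did not deviate together (r -0.087 to 0.098 over 30 pairs, against -0.095 to 0.14 over 60 differently numbered pairs). A check over all genes cannot exclude pairing that acts on some of them. Replicate 1 held the highest PHGDH and the lowest PSAT1 in DMSO, DW71177 and OTX015. The replicate block lowered the count between DW71177 and OTX015 to 107 and ended no call of PHGDH or PSAT1, whose adjusted p with RVX208 became 0.0021 and 0.00044. The correlation of both genes was 0.923 by Pearson, 0.770 by Spearman and 0.976 over group means. Of 94 calls of list genes against DMSO, 68 held under every setting run and 26 did not, with 0 reversed; running the settings on list genes, and on MYC between DW71177 and OTX015, was chosen after seeing the data.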
